A study of Triticum aestivum with 10 samples.

Results

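The genes described here are 4 methyl cycle and methyltransferase genes, not all that the array may hold. They were picked by symbol from those that an annotation of the wheat array names: SAHH, COMT1 (listed as LOC543449), PEAMT1 (LOC543067) and PIMT (LOC543193). All probe sets that the probe-to-gene table pairs with these symbols or their synonyms were taken, which gave 5 of the 61290 probe sets on the array, 2 of them for SAHH. The table names 771 genes in all. Every member passed the filter on dim probe sets and was tested.

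Anthers of BS366, a thermosensitive genic male sterile (TGMS) wheat line whose labels place all samples at meiosis, were measured on the Affymetrix GeneChip Wheat Genome Array, on which a set of oligonucleotides stands for each transcript. For the fertile group, plants vernalized in the field were grown at 20 °C, and those of the sterile group were moved to 10 °C for 5 days, under 12 h of light in either case. Each treatment was sampled at 5 anther lengths, which ran from about 1.5 mm through 2.0, then 2.2, then 2.5 mm, up to 3.0 mm, with 1 array for each treatment and length (10 arrays). All arrays are of this 1 line, so no line that stays fertile in the cold stands beside it, and arrays were matched by anther length, not by stage. The values are MAS5 signals on a linear scale.

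The methyl cycle supplies S-adenosylmethionine, the methyl donor of most cellular methyltransferases, DNA methyltransferases included. Each transfer leaves S-adenosylhomocysteine, which inhibits methyltransferases until S-adenosylhomocysteine hydrolase (SAHH) splits it into adenosine and homocysteine. COMT1 is a caffeic acid O-methyltransferase, an enzyme type that methylates precursors of lignin and related phenolics. PEAMT1 is a phosphoethanolamine N-methyltransferase, which makes phosphocholine for membrane phosphatidylcholine and, in cereals, for choline and glycine betaine. In Arabidopsis, silencing of the gene for this enzyme gave temperature-sensitive male sterility. PIMT is a protein L-isoaspartyl methyltransferase, which repairs damaged aspartyl residues and is best known from seeds.

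The arrays differed in ways that bear on these genes. The mean signal was 118 to 125 on all arrays. The fertile 3.0-mm array had the lowest mean correlation with the others across tested probe sets (0.786, against 0.867 to 0.917), and the fertile 2.2-mm array had the brightest hybridization controls (geometric mean 813, against 263 to 389). The 18S rRNA control signal ran from 2.22 to 314.9 on the fertile and from 32.3 to 2833 on the sterile arrays, and it was higher on the sterile array at each length. The ratio of the 3′ to the 5′ ubiquitin probe set, a sign of RNA quality, was 0.421, 0.521 and 0.532 on the fertile 2.2-, 2.5- and 3.0-mm arrays, and 0.578 to 0.694 on the other 7. These 3 arrays are also those on which PEAMT1 was highest, and the part of RNA quality in the results was not tested. The tapetal transcripts raftin1a and raftin1b had signals of 992 to 5941 on the fertile and 242 to 2797 on the sterile arrays, so the anther markers of the label were present in both treatments.

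In fertile anthers 3 of the 5 probe sets rose with anther length, those of PEAMT1 and COMT1 and 1 of SAHH, and in sterile anthers none passed the test. To test the course over length, a straight line was fitted to the log2 signals of each treatment with limma. The fit had 1 residual spread for both treatments, and p-values were adjusted over the 30590 tested probe sets. Both slopes of a probe set thus had the same standard error. The p-value and interval of each slope therefore reflect the scatter of fertile and sterile arrays together. Of all tested probe sets 2.34% rose in the fertile series by this test (715 of 30590), and the 5 members gave 3. In the sterile series no probe set of the table passed (0.0%), although 2447 had an unadjusted p under 0.05, so the failure of the members to pass there does not set them apart. The slopes of the 5 members had a median of 0.89 log2 units per mm in the fertile and 0.15 in the sterile series, against -0.03 and -0.01 over all tested probe sets. Without the 3.0-mm pair no probe set of the table passed in the fertile series (4778 had an unadjusted p under 0.05). The slopes of PEAMT1 (2.32) and SAHH _x_at (0.75) then stayed close to those with all lengths (2.12 and 0.89), and that of COMT1 was 0.42 against 2.27.

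**Figure D1:**
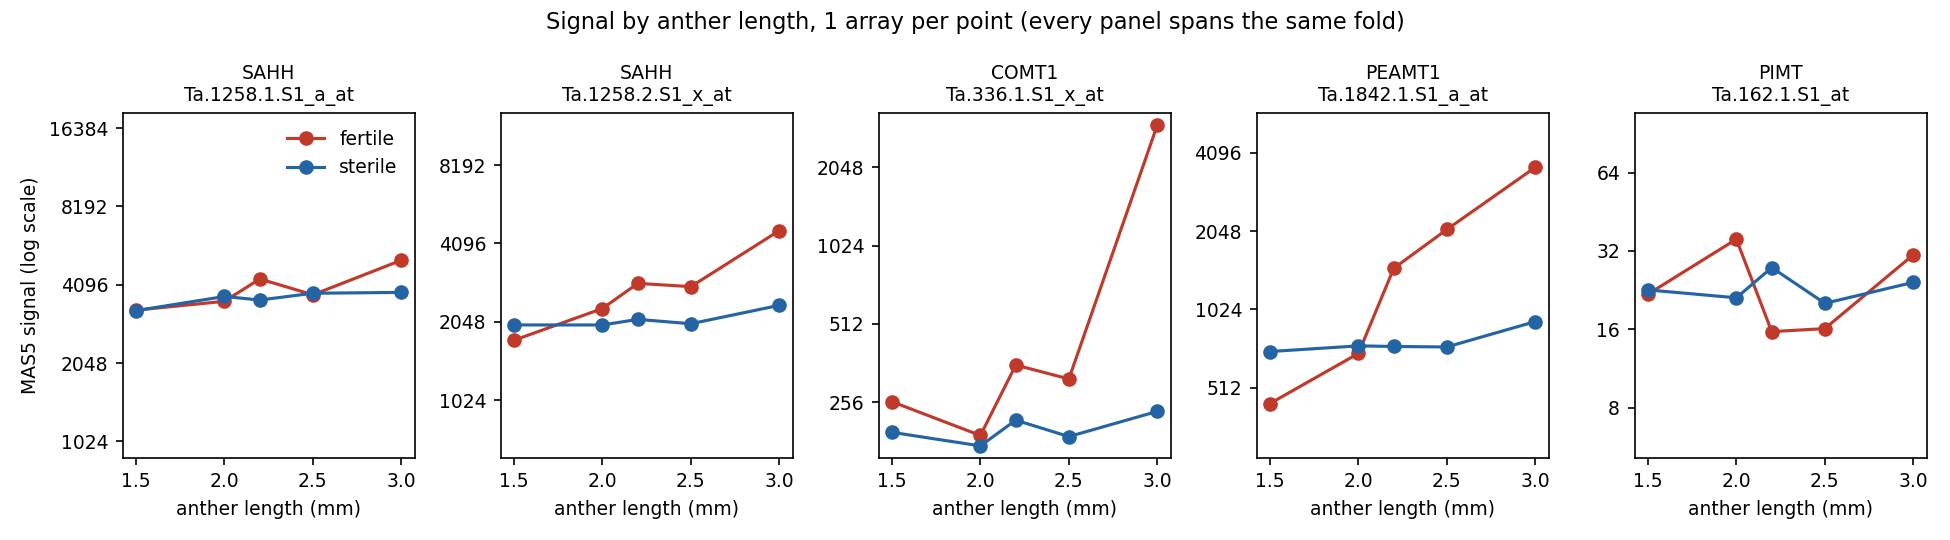
Signal (log axis, every panel spanning the same fold) against anther length in mm for the 5 probe sets, 1 array per point, with fertile arrays in red and sterile arrays in blue. PEAMT1 runs from 445 to 3600 in fertile and from 705 to 919 in sterile anthers, and COMT1 stands at 2979 on the fertile 3.0-mm array alone.

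PEAMT1 had the fertile slope with the lowest p-value of the 4 genes. From the shortest to the longest anthers its fertile signals were 445, 693, 1473, 2076 and 3600, so that each length was higher than the one before. Of all tested probe sets 2.25% were higher at each longer length in the fertile series, and PEAMT1 was the only member among them. Its sterile signals were 705, 741, 737, 734 and 919 in the same order, a range of 1.30-fold against 8.10-fold in the fertile series. The sterile anthers were therefore above the fertile ones at 1.5 and 2.0 mm and below them at the 3 greater lengths, and the signals of the treatments overlapped.

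The fertile slope of PEAMT1 was 2.12 log2 units per mm (standard error 0.20, adjusted p = 0.0062 from limma), which is a 4.33-fold change per mm. By p-value it ranked 1 of the 30590 tested probe sets in this comparison, while 361 had a higher, that is more strongly rising, slope. This p-value draws on the sterile arrays too, since both slopes share 1 residual spread. The sterile slope was 0.23 (95% interval -0.21 to 0.67, adjusted p = 0.83 from limma). The sterile slope minus the fertile slope was -1.89 (95% interval -2.51 to -1.26), with an unadjusted p of 4.9e-05 that ranked 8 but an adjusted p of 0.16 from limma. That difference of courses therefore did not pass. No probe set in the table passed it (0.0% of 30590), and 3653 had an unadjusted p under 0.05. Without the 3.0-mm pair the fertile slope of PEAMT1 was 2.32 with an adjusted p of 0.071 from limma, and its adjusted p was 0.058 when dim probe sets were kept.

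COMT1 was high on 1 array. In the same order its fertile signals were 257, 191, 356, 314 and 2979, and its sterile signals were 196, 174, 218, 189 and 236. The fertile 3.0-mm signal was 8.37-fold above the next highest of the 10 arrays, while the other 9 lay within 174 to 356. At least 2-fold above the highest of the other arrays was the fertile 3.0-mm signal of 3.44% of the tested probe sets, and 131 of 30590 had a gap as large as that of COMT1. The array with this value is the one with the lowest mean correlation with the others, and the part of that in the result was not tested.

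The fertile slope of COMT1 was 2.27 log2 units per mm (standard error 0.55, adjusted p = 0.044 from limma). The call rests on the longest anthers, since the signals at the other 4 lengths lay within 191 to 356. Without the 3.0-mm pair the slope was 0.42 (adjusted p = 0.67 from limma), and without the 1.5-mm pair it was 3.76 (adjusted p = 0.013). Without the 2.0- or the 2.2-mm pair it was 2.11 and 2.26, with adjusted p = 0.14 and 0.093. With anther length as its rank the adjusted p was 0.058, in eBayes fitted without an intensity trend 0.065, and when dim probe sets were kept 0.17. The sterile slope was 0.18 (95% interval -1.06 to 1.41) and the difference of slopes -2.09 (95% interval -3.84 to -0.35, adjusted p = 0.34 from limma). That difference was -0.41 without the 3.0-mm pair and -3.42 without the 1.5-mm pair.

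SAHH was read by 2 probe sets, of which 1 rose with length in fertile anthers. They are named here by the suffix of their ID, _x_at for probes that may also bind other transcripts and _a_at for probes shared by transcripts of the same gene, so homoeologous copies of a gene cannot be told apart. The _x_at probe set had fertile signals of 1739, 2303, 2877, 2796 and 4593 and sterile signals of 1992, 1991, 2092, 2013 and 2369. Its fertile signals thus lay above the sterile ones at all lengths but 1.5 mm. The fertile slope was 0.89 log2 units per mm (standard error 0.14, adjusted p = 0.013 from limma), or 1.86-fold per mm, and the sterile slope 0.15 (95% interval -0.15 to 0.46, adjusted p = 0.84 from limma). The slope difference of -0.74 (95% interval -1.17 to -0.31) had an adjusted p of 0.21 from limma. Without the 1.5-, 2.0- or 3.0-mm pair the fertile slope was 0.92, 0.89 and 0.75, with adjusted p = 0.054, 0.051 and 0.15 from limma, so the call was lost while the slope changed little. The call was also lost when dim probe sets were kept (adjusted p = 0.066).

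The _a_at probe set of SAHH had fertile signals of 3273, 3539, 4314, 3749 and 5092 and sterile signals of 3258, 3693, 3579, 3801 and 3829. Only the fertile 2.2- and 3.0-mm arrays lay above the sterile range. Its slopes were 0.39 in the fertile series (95% interval 0.11 to 0.68, adjusted p = 0.11 from limma) and 0.15 in the sterile series, and neither passed. The probe sets had an r of 0.914 over the 10 arrays. COMT1 was also read by an _x_at and PEAMT1 by an _a_at probe set.

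PIMT was the dimmest member and had no shared course. Its fertile signals were 21.8, 35.5, 15.7, 16.1 and 30.9 and its sterile signals 22.7, 21.1, 27.6, 20.1 and 24.2. All were above the floor of 4.05 that was set before taking log2. They lay around the median signals of the arrays (20.7 to 24.1), and no detection calls were used. The fertile values went both above and below the sterile range. Its slopes were 0.10 and 0.03 in the fertile and sterile series, with 95% intervals of -0.86 to 1.05 and -0.92 to 0.99, so changes of almost 2-fold per mm in either direction lie within them.

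**Figure D2:**
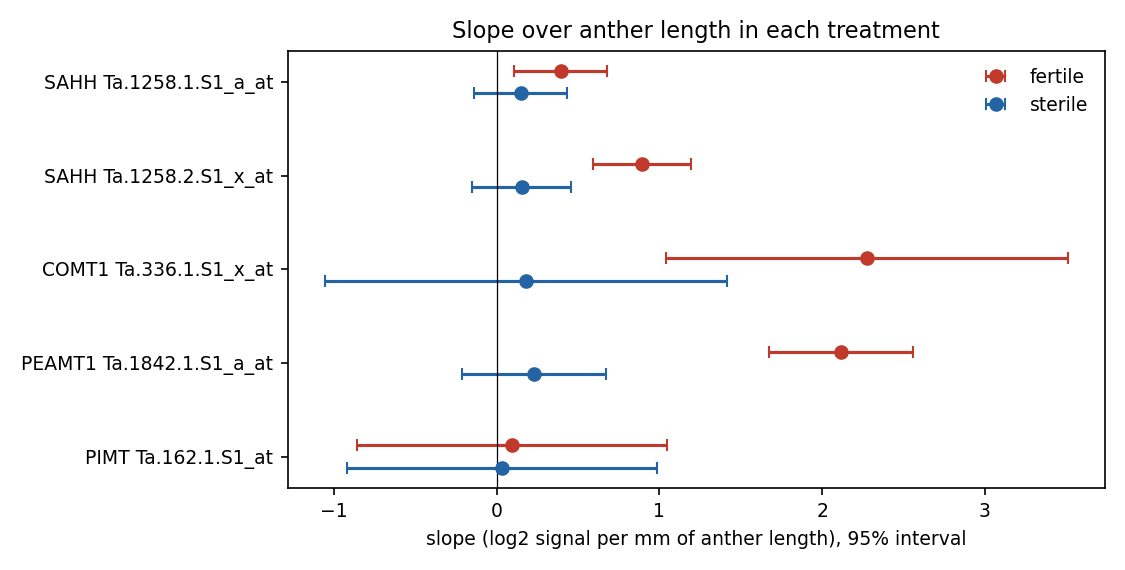
Slope of log2 signal per mm of anther length for each probe set, with its 95% interval from limma, fertile in red and sterile in blue. The fertile slopes of PEAMT1 (2.12), COMT1 (2.27) and SAHH _x_at (0.89) passed the test, and all 5 sterile slopes lie between 0.03 and 0.23.

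Signals varied less over length in sterile than in fertile anthers for all 5 probe sets. The ratio of the highest to the lowest signal was 1.18 to 1.37 in the sterile series and 1.56 to 15.6 in the fertile series. The fertile range was also the wider for 75.5% of the tested probe sets, so 5 of 5 is close to what the array as a whole showed. Over all tested probe sets the median ratio was 1.59 in the sterile and 2.03 in the fertile series. Within the sterile series the 5 ranges stood at the 5th to the 26th percentile of all tested probe sets. In the fertile series those of PEAMT1 and COMT1 stood at the 94th and 98th percentile. The probe sets behind these percentiles were not matched for signal level. On the log2 scale the SD over the 5 lengths was 1.21 for PEAMT1 and 1.58 for COMT1 in the fertile series, against 0.15 and 0.17 in the sterile series.

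**Figure D3:**
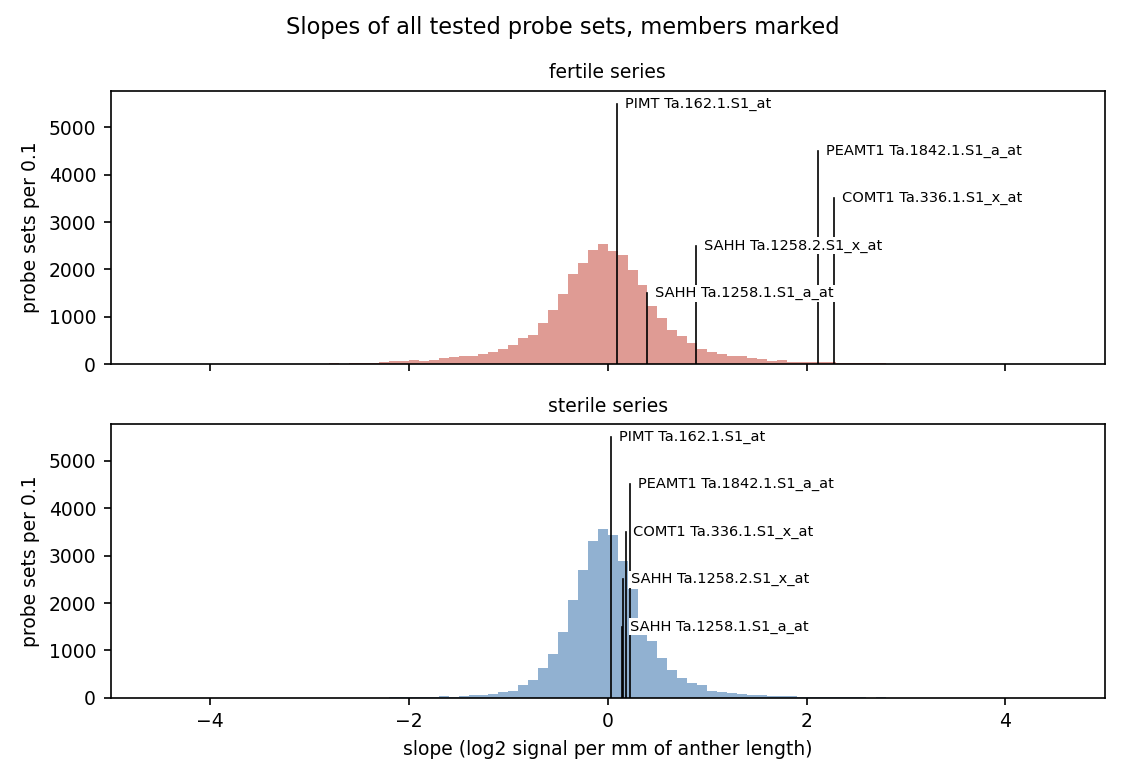
Number of tested probe sets per 0.1 of slope (log2 signal per mm) in the fertile (top) and sterile (bottom) series, with the members marked by lines whose height has no meaning. PEAMT1 and COMT1 lie at 2.12 and 2.27 in the fertile tail and the sterile slopes of all members lie near 0; 16 fertile and 6 sterile slopes beyond 5 or -5 are counted in the end bins.

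Averaged over all lengths, no member passed the test between sterile and fertile anthers. This comparison asked whether the mean sterile minus fertile log2 difference departed from 0 given its spread over the 5 lengths, with length as a factor in limma. Of all tested probe sets 0.248% passed in either direction, and 0 of the 5 members did (adjusted p = 0.28 to 0.98 from limma). The mean log2 difference was -1.12 for COMT1 (95% interval -2.24 to -0.00443), -0.74 for PEAMT1 (-1.61 to 0.12), -0.38 for SAHH _x_at (-0.77 to 0.01), -0.12 for SAHH _a_at (-0.38 to 0.14) and 0.02 for PIMT (-0.68 to 0.72). Without the 3.0-mm pair these differences were -0.49 for COMT1, -0.43 for PEAMT1, -0.24 for SAHH _x_at and -0.05 for SAHH _a_at, and without the 2.2-mm pair that of PIMT was -0.18. The median of the 5 members was -0.38 with all lengths, against -0.02 over all tested probe sets. COMT1 was lower in sterile anthers at 5 of 5 lengths, as were 8.57% of the tested probe sets. An exact sign-flip permutation test of its differences gave p = 0.063 (two-sided), the smallest that 5 lengths allow, and the same test gave 0.13 to 0.88 for the other members.

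The differences were not alike at the 5 lengths. At a given length there is 1 array per treatment and so no test. PEAMT1 was 1.58-fold higher in sterile anthers at 1.5 mm and 1.07-fold higher at 2.0 mm. It was then 2.00-, 2.83- and 3.92-fold higher in fertile anthers at 2.2, 2.5 and 3.0 mm. SAHH _x_at was 1.15-fold higher in sterile anthers at 1.5 mm and 1.16-, 1.38-, 1.39- and 1.94-fold higher in fertile anthers at the other lengths. COMT1 was 1.31-, 1.10-, 1.63- and 1.67-fold higher in fertile anthers up to 2.5 mm and 12.6-fold higher at 3.0 mm. PIMT was 1.68-fold higher in fertile anthers at 2.0 mm and 1.76-fold higher in sterile anthers at 2.2 mm, and its differences had no single direction.

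At least 2-fold lower in sterile anthers were 0 of 5 members at 1.5, 2.0 and 2.2 mm, 1 at 2.5 mm (PEAMT1) and 2 at 3.0 mm (PEAMT1 and COMT1). The shares of all tested probe sets were 6.11%, 7.01%, 7.17%, 10.6% and 10.8% at the 5 lengths. At 2.2 mm PEAMT1 just missed this limit, with a log2 difference of -0.9985. The median log2 difference of the members was 0.05, -0.13, -0.46, -0.47 and -0.95 from 1.5 to 3.0 mm, while that of all tested probe sets was -0.01, -0.13, 0.17, -0.06 and -0.01. At 3.0 mm 5 of 5 members were lower in sterile anthers, against 50.7% of the tested probe sets. Fewer cells of a type in the anther and less RNA per cell cannot be told apart in such bulk samples.

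**Figure D4:**
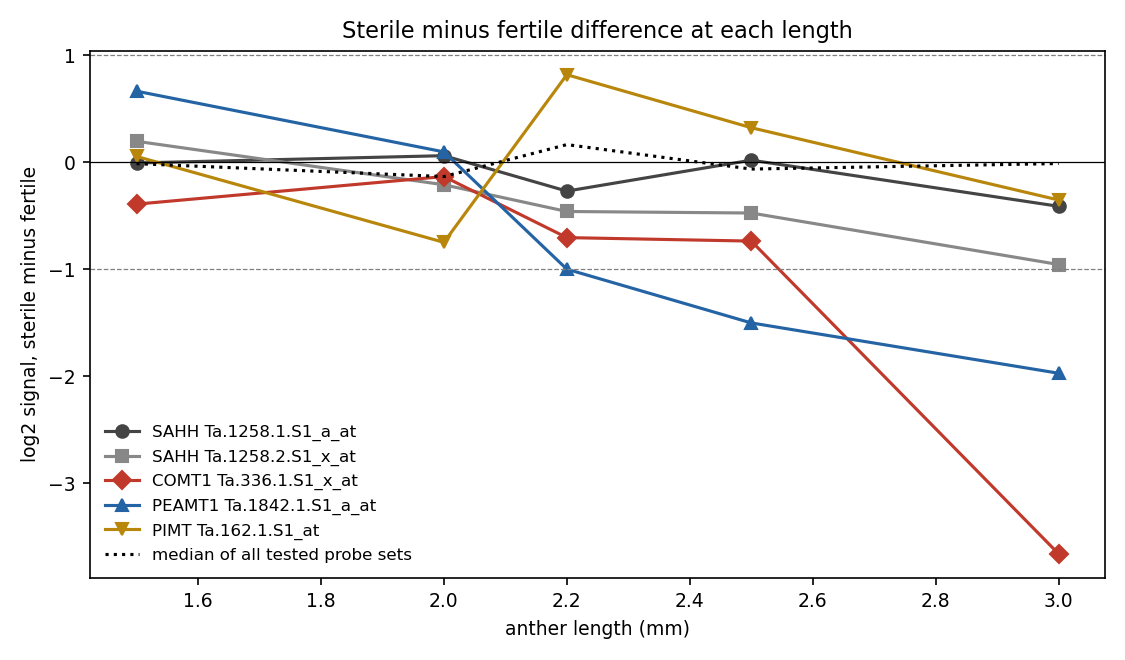
Sterile minus fertile log2 signal at each anther length (mm) for the 5 probe sets, 1 pair of arrays per point, with the median of all tested probe sets dotted and 2-fold differences dashed. PEAMT1 goes from 0.66 at 1.5 mm to -1.97 at 3.0 mm and COMT1 drops to -3.66 at 3.0 mm, while the dotted median stays within -0.13 and 0.17.

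The signals of the treatments overlapped for all 5 members, and 3.41% of the tested probe sets did not overlap. The sterile anthers stayed within the lower part of the fertile range of PEAMT1. Its highest sterile signal (919 at 3.0 mm) lay between the fertile signals at 2.0 and 2.2 mm, and all 5 sterile signals were above the lowest fertile one. For SAHH _x_at the highest sterile signal, 2369, was likewise reached in fertile anthers between 2.0 and 2.2 mm. Whether equally long anthers of the treatments had reached the same stage was not tested, and stage and treatment cannot be told apart in these courses.

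Over all arrays the signals of PEAMT1, SAHH and COMT1 were correlated with each other and little with those of PIMT, but within the sterile series the order was less clear. Over the 10 arrays, which all members share, the log2 signals of PEAMT1 and SAHH _x_at had an r of 0.958. Within the series r was 0.953 over the 5 fertile and 0.964 over the 5 sterile arrays, where all signals differ little. On the sterile 3.0-mm array both signals (919 and 2369) were set apart above the other sterile ones. That array therefore weighs heavily in the sterile r. COMT1 had an r of 0.823 with PEAMT1 and of 0.900 with SAHH _x_at over the 10 arrays, and of 0.700 and 0.865 over the 5 sterile arrays. The fertile 3.0-mm array, the only one on which COMT1 was high, weighs heavily in its r over the 10 arrays. PIMT had an r of -0.09 to 0.23 with the other probe sets over the 10 arrays. Within the sterile series r was 0.745 for PIMT with COMT1, 0.482 for the probe sets of SAHH with each other and 0.150 for SAHH _a_at with COMT1. These values describe 10 arrays with a common order by length and are no test of a link.

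Among the 588 other annotated genes with a tested probe set, SAHH was the third most like PEAMT1 by r over the 10 arrays. Each gene was taken by its probe set with the highest r. For SAHH this was _x_at (r = 0.958), while its brighter _a_at probe set had an r of 0.861 with PEAMT1. The first and second most like PEAMT1 were LOC100037556 (r = 0.965) and LOC542962 (r = 0.961), for which the tables used here give no name. LOC100037556 had signals of 778 at 1.5 mm and 5052 at 3.0 mm in the fertile series and of 978 to 1248 in the sterile series. Most like COMT1 was LOC778422 (r = 0.985), then LOC100037571 (r = 0.984) and LOC542807 (r = 0.975). LOC778422 reached 4147 in fertile anthers of 3.0 mm and lay at 26.3 to 60.2 in the sterile series. The fertile 3.0-mm array weighs heavily in these r values too. Over the 5 sterile arrays the r of COMT1 with LOC778422, LOC100037571 and LOC542807 was 0.775, 0.241 and 0.409. By its brighter probe set SAHH was closest to LOC778397 (r = 0.939), LOC543297 (0.934) and LOC100037556 (0.921). The nearest genes to PIMT, LOC543175, LOC542929 and LOC543247, had lower values (r = 0.885, 0.843 and 0.840).

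Of a wider list of methyl cycle, phosphocholine and phenylpropanoid genes, matched by symbol or synonym alone, the annotation held 1 further gene, APRT. This adenine phosphoribosyltransferase salvages adenine to AMP, next to the adenosine that SAHH releases. Its fertile signals were 1616, 1431, 1322, 1504 and 1861 and its sterile signals 2137, 1861, 1656, 1820 and 1648. It was above the fertile value in sterile anthers at 4 of 5 lengths. Neither the mean log2 difference (0.24, with a limma adjusted p of 0.37) nor the slopes of 0.15 in fertile and -0.23 in sterile anthers (adjusted p = 0.66 and 0.78) passed.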

How the data were processed

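RNA of BS366 anthers was hybridized to 10 Affymetrix wheat arrays. The authors deposited intensities, namely linear MAS5 signals of each probe set, and the sources used here give no MAS5 version. Arrays were grouped by the labels' condition (5 fertile, 5 sterile) and length. Of 61290 probe sets, 111 controls were left out of the tests. The 20th percentile of all values (4.05) served as a floor before log2 transformation. The 30590 probe sets whose mean reached the median were tested in limma 3.58.1 under R 4.3.3 (lmFit, eBayes with an intensity trend, Benjamini-Hochberg threshold 0.05). The treatment test had treatment and length as factors (4 residual degrees of freedom), so that the lengths stand in for replicates. The slope tests had treatment, length in mm and their product (6 residual degrees of freedom). The sources used here do not say whether each array held RNA of other plants, so p-values measure the spread between these arrays, which may be technical. In the treatment test this spread is how the sterile minus fertile difference varied over length, so ordered changes with length count in it. In the slope tests it is the departure from the straight lines, so bends in a course count in it. Precision is limited by the number of arrays. The fits were tested on data simulated with normal noise, straight slopes and the same spread in both treatments. Unequal spreads and bent courses were not simulated.

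The probe-to-gene table held 1273 probe sets and 771 genes, 770 of them found in the RefSeq gene table of IWGSC CS RefSeq v2.1, which was used for names alone. Named were all member probe sets, the 3 annotated genes most like each member's brightest probe set by Pearson r, and listed pathway genes that the tables name by symbol or synonym. Each annotated gene was compared by its probe set with the highest r. The members and lists were chosen with earlier results of these data known. Alternatives were quantile normalization, median centring, other floors, filters and fold limits, eBayes without a trend, no length block, length as rank, and each length left out.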

Additional observations from a re-analysis of the deposited data

Results flagged for a closer look

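In 15 groups of 5 values (fertile signals, sterile signals and differences of each probe set, on the log2 scale), 4 held a value far from the other 4. Independent draws from a normal distribution would give about 1 in 20 groups. These values are ordered by length and the groups share arrays and signals, so that share is no test here. All 4 lay at 3.0 mm. The fertile signal of COMT1 at 3.0 mm (2979) was separated from the next by a gap of 0.773 of the range, and its sterile minus fertile difference of -3.66 by a gap of 0.829. These 2 values share the fertile 3.0-mm array, whose mean correlation with the other arrays was the lowest (0.786). The sterile signal of PEAMT1 at 3.0 mm (919) had a gap of 0.810 and that of the SAHH _x_at probe set (2369) a gap of 0.715, both on the sterile 3.0-mm array, whose mean correlation with the others was 0.911, and both within a sterile range of 1.30- and 1.19-fold.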

How the results depend on the processing

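Across 13 alternatives per comparison (12 for PIMT, which the stricter filter left out), COMT1, PEAMT1 and SAHH _x_at kept their direction in all 4 comparisons. Other floors and filters, eBayes without a trend and the fit without the length block left these estimates unchanged. Those settings moved p-values alone and could not turn a direction. The fertile slope passed in 11 of 13 for PEAMT1, 9 of 13 for SAHH _x_at and 7 of 13 for COMT1 (highest adjusted p = 0.071, 0.15 and 0.67 from limma). No member passed the treatment test, the sterile slope or the slope difference in any of them (lowest adjusted p = 0.063 from limma, the slope difference of PEAMT1). The sign turned for the slope difference of SAHH _a_at after quantile normalization (0.0059) and for PIMT with length as rank (fertile slope -0.013, difference 0.026). With 1 length left out PIMT went from -0.18 to 0.21 in the treatment test, from -0.57 to 0.26 and from -0.055 to 0.089 in the fertile and sterile slope, and from -0.26 to 0.52 in their difference. The cause was not tested.

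Of 76 probe sets past the treatment test, the count was 33 after median centring, 0 without the filter (7197 at an unadjusted p under 0.05), 2 with eBayes without a trend, 9 without the length block, and 0 to 598 with 1 length left out, 598 without 3.0 mm. The 1627 fertile slopes became 4 without the filter and 0 to 1544 with 1 length left out (280 without 2.0 mm, 912 without 2.2 mm and 0 without 3.0 mm). Slope differences went from 0 to 13 without 1.5 mm. More probe sets are tested without the filter and fewer arrays without a length. Differences past 1.5-fold numbered 7851, 8254, 12247, 11483 and 12781 from 1.5 to 3.0 mm, and past 3-fold 867, 872, 1825, 1878 and 3234. The number of arrays limits every comparison.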
